A study of Mus musculus with 22 samples.

Results

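MHC class II antigen presentation was followed through 9 genes taken by name: the transactivator Ciita, the invariant chain Cd74, the classical chains H2-Aa, H2-Ab1 and H2-Eb1, and the genes of the peptide exchange molecules, H2-DMa, H2-DMb2, H2-Oa and H2-Ob. 8 of the 9 had a probe set of their own and passed the filter on dim probe sets, of 6437 genes tested in all. They were read by 12 probe sets that name 1 gene each. H2-Ob shares its probe set with the transcript Gm20506, so no value is given for it. A pair of probe sets shared by H2-DMb2 and its neighbour H2-DMb1 was not used either.

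The 22 Affymetrix MOE430A arrays, 1 per sample, cover 3 stages of lymphoma development in C57Bl/6 mice that carry the Eμ-Myc transgene, in which an immunoglobulin heavy chain enhancer drives Myc in B lineage cells. 4 arrays hold wild type B220+ cells without the transgene, 5 hold premalignant B220+ cells with it, both from mice 4 to 6 weeks old, and 13 hold malignant cells from lymphomas of independent transgenic mice. B cells were taken from bone marrow or spleen with magnetic beads against B220 or IgM. Beyond B220+ for the wild type and premalignant cells, the labels do not say which organ and bead belong to which array. For lymphomas the labels repeat the age of the younger mice, and it was not used. Wild type and premalignant samples are called biological replicates without a statement that each came from its own mouse, so their p-values cover only the spread among those samples. The number of arrays limits the precision.

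MHC class II molecules are pairs of an alpha and a beta chain that show peptides from taken-up protein to helper T cells, and B cells express them throughout their mature life. Cd74 chaperones the new pair and fills its groove until cathepsins trim it, H2-DM then exchanges the remaining fragment for peptide, and H2-O restrains H2-DM in B cells. Ciita binds no DNA itself. It joins the RFX complex, NF-Y and CREB on the X and Y boxes upstream of these genes and switches them on together. C57Bl/6 mice carry a defective H2-Ea gene, the partner of H2-Eb1, and so make no complete I-E molecule.

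The upstream sequences of H2-Eb1, H2-DMb2, H2-Oa and H2-Aa are shown because they are where Ciita and its partners are known to act. These genes were all called lower in lymphomas than in premalignant cells. Each sequence is the 150 bases before an annotated start of the gene, written 5′ to 3′ on the gene's strand from build GRCm38.p6. For H2-DMb2 that start lies inside the annotated span of the gene, which begins at chr17:34143229. H2-Eb1 is at chr17:34305717-34305866, H2-DMb2 at chr17:34145099-34145248 and H2-Oa at chr17:34092229-34092378 on the plus strand, and H2-Aa is at chr17:34287824-34287973 on the minus strand. Capitals mark the Y box core ATTGG on the gene's strand and, before it, the X1 box core GNNACNGAT (N is any base; at most 1 mismatch) where 20 to 25 bases lie between them.
H2-Eb1: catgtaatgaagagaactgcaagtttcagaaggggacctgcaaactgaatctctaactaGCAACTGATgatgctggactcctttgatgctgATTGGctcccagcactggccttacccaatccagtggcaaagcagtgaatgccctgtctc
H2-DMb2: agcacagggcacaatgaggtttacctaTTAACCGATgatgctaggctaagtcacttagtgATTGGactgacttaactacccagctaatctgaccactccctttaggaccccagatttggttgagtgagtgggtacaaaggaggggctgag
H2-Oa: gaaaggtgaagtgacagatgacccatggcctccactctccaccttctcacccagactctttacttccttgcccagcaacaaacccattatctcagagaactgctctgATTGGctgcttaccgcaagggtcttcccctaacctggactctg
H2-Aa: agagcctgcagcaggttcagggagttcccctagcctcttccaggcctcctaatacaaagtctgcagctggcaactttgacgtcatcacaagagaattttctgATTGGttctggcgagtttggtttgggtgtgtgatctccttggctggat

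The X1 core of H2-Eb1 matched without a mismatch and lay 23 bases before the Y core. That of H2-DMb2 had 1 mismatch and lay 24 bases before it. H2-Ob, whose level is not given, held the same arrangement with 21 bases between the cores and 1 mismatch. In H2-Oa and H2-Aa the Y box was present as CTGATTGG, 46 and 51 bases upstream of the start, with no X1 core at that distance in front of it. H2-Eb1 also held CTGATTGG. Neither H2-DMa window in the table had the pair. Both lie inside the annotated span of that gene, and the start of the span was not searched. The table holds 32851 promoter windows (250 bases before to 50 after a start), of which only the 250 bases before the start were searched. On both strands, 3.83% held CTGATTGG, 33.8% held ATTGG and 6.53% held GNNACNGAT (79.7% with 1 mismatch allowed). The pair in this order and spacing on the gene's strand was found in 0.374% of windows, but the spacing was set after the sequences of these genes had been seen. ATTGG is part of CTGATTGG, so those counts overlap. 6 of the 9 genes had a window in the table.

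All 8 genes had their highest mean in wild type B cells, and none was called higher at either later stage. On the log2 scale of the array intensities, wild type means ran from 7.01 for Ciita to 13.58 for Cd74. These levels rank arrays for a gene and do not rank one gene against another, because each probe set has its own efficiency. Log2 4 is the filter level used here, below which a value is too dim for its order to be relied on.

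**Figure D1:**
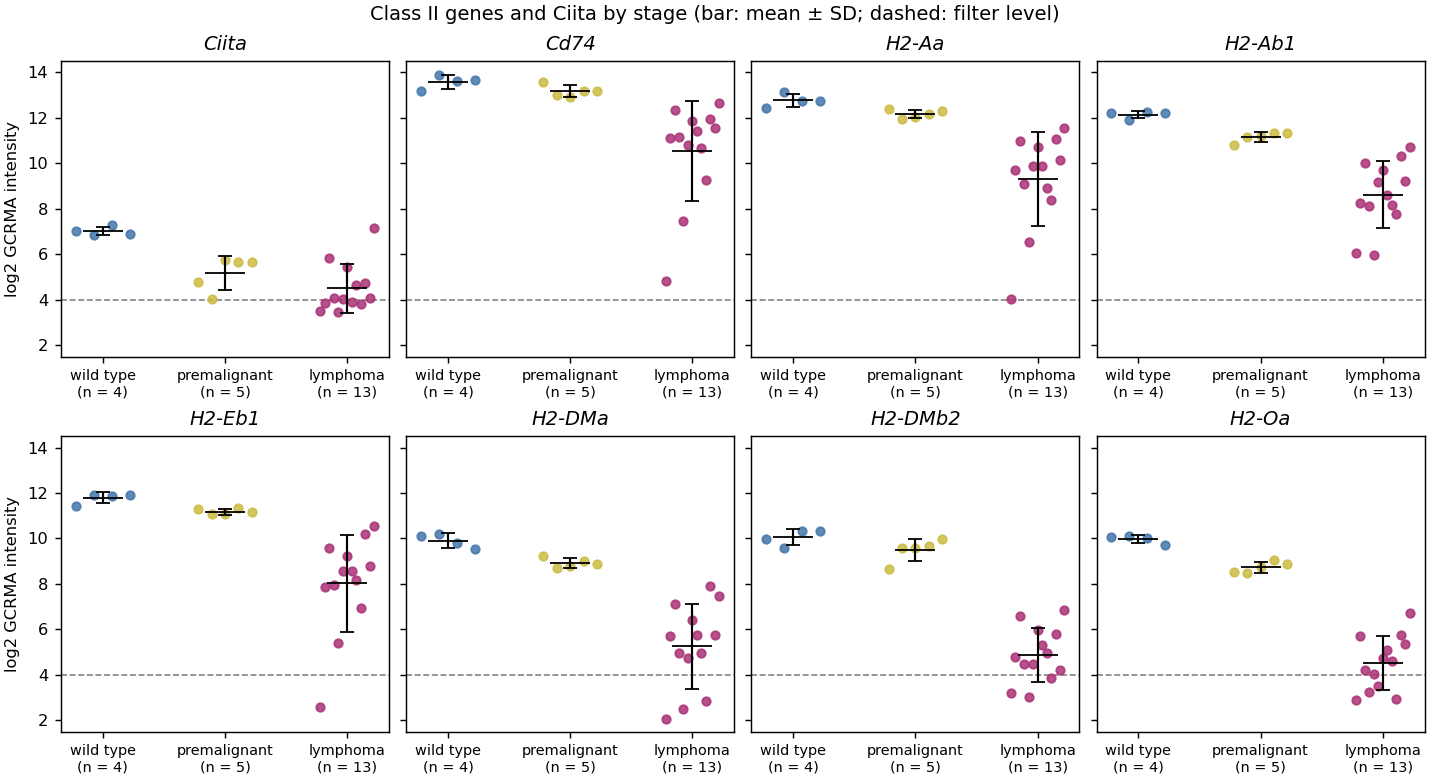
Log2 GCRMA intensity (vertical axis) of the probe set that stands for each of 8 genes, by stage (horizontal axis), with 1 point per array, the mean and SD as bars and a dashed line at the filter level of log2 4. For the 7 class II genes the lymphomas all lie below the premalignant arrays and spread downward, from 12.67 to 4.84 for Cd74, whereas for Ciita the premalignant arrays run from 4.05 to 5.73 and a lymphoma reaches 7.18.

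Ciita, the master switch, was already lower in premalignant cells. Its values in the 4 wild type arrays were 7.02, 6.87, 7.27 and 6.90, and in the 5 premalignant arrays 4.78, 4.05, 5.73, 5.68 and 5.68. Every premalignant array lay below every wild type array. The fitted change was a fall of 1.83 log2 units (SE 0.33, 3.56-fold, limma adjusted p = 0.0028 over all genes tested). The other, dimmer Ciita probe set fell 2.81-fold over the same step (adjusted p = 0.00039 over all probe sets, of which 11.7% fell). Premalignant replicates 1 and 2 were the lowest of their group on the first probe set but not on the dimmer one, where the 5 arrays read 5.51, 5.70, 5.32, 4.92 and 5.64.

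The classical chains fell less than 2-fold in premalignant cells. H2-Ab1, the beta chain of I-A, had wild type values of 12.20, 11.90, 12.26 and 12.20 and premalignant values of 10.81, 11.14, 11.20, 11.35 and 11.32, and fell 1.97-fold (adjusted p = 0.001). Its partner H2-Aa fell 1.51-fold (mean 12.77 ± 0.29 to 12.17 ± 0.18, SD, n = 4 and 5; adjusted p = 0.021). H2-Eb1 fell 1.52-fold (11.79 ± 0.23 to 11.18 ± 0.13; adjusted p = 0.011). For each of the 3 chains the groups did not overlap. The H2-Aa call was lost when wild type replicate 2 (adjusted p = 0.053) or, separately, premalignant replicate 3 (0.056) was left out.

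H2-Oa, which encodes the alpha chain of the H2-DM inhibitor, was the called class II gene with the largest premalignant fall after Ciita. Its wild type values were 10.05, 10.13, 10.02 and 9.71 and its premalignant values 8.53, 8.47, 8.76, 9.04 and 8.86. It fell 2.37-fold (adjusted p = 0.00038) with no overlap. H2-DMa, the alpha chain of the peptide exchanger, fell 1.99-fold (9.91 ± 0.31 to 8.92 ± 0.20; adjusted p = 0.0022), again with no overlap.

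Cd74 and H2-DMb2 did not pass at this step, and their groups overlapped. Cd74 had values of 13.18, 13.87, 13.63 and 13.65 in wild type arrays and 13.59, 12.99, 12.92, 13.18 and 13.20 in premalignant arrays, a difference of -0.41 log2 units (95% confidence interval -0.81 to -0.01; adjusted p = 0.12). It passed without premalignant replicate 1 (adjusted p = 0.042), the array that had the highest Cd74 of its group. H2-DMb2, the beta chain of H2-DM, differed by -0.57 (interval -1.15 to 0.01; adjusted p = 0.14), and premalignant replicate 1 was lowest, at 8.66. Without that array the difference was -0.36 (adjusted p = 0.19).

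In all, 6 of 8 genes fell and 0 rose in premalignant cells, where 14.1% of all genes tested fell and 12.7% rose. The same 6 genes showed no overlap between the groups, which 13.0% of all genes did in that direction. The median log2 change of the 8 genes was -0.79, against -0.05 over all genes. At the same step 4 of 6 B cell markers fell (median -0.52) and 0 of 9 macrophage markers passed (median -0.01, lowest limma adjusted p = 0.071). None of 5 neutrophil markers passed either, with a median log2 change of 1.49. S100a8 read 5.07-fold higher in premalignant arrays (limma adjusted p = 0.055), S100a9 5.67-fold (0.061) and Ngp 2.81-fold (0.058). Summed erythroid markers ran from 4.24 to 8.57 in wild type and from 4.22 to 9.45 in premalignant arrays, highest in replicate 2 of each. The part of cell mix was not tested. The calls rest on the scaling and on which arrays set the spread. Only Ciita remained called when arrays were centred on the hybridisation spikes, which moved the median of all genes to 0.20 and left 5 of the falls at an adjusted p of 0.078 to 0.7, and only Ciita passed in 1 fit over all 3 stages, where the wide lymphomas enter the spread (the other 5 at 0.13 to 0.74). Without wild type replicate 2 and premalignant replicate 1, the arrays of those groups with the lowest mean correlation with their own group (0.956 and 0.938), 7 of 8 passed.

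The step from premalignant cells to lymphoma was the larger one for every class II gene except Ciita in the fitted values. On the dimmer Ciita probe set the steps were -1.49 and -1.62, so the exception holds for 1 probe set only. No test of the difference between the steps was run, since both share the premalignant arrays. On the probe sets that stand for the genes, those of the peptide exchange machinery came first. Another H2-Ab1 probe set fell 12.9-fold, slightly more than H2-DMa, so the place of H2-DMa depends on the probe set used. H2-DMb2 fell 24.4-fold (9.49 ± 0.49 to 4.89 ± 1.19, SD, n = 5 and 13; adjusted p = 1.4e-06), from premalignant values of 8.66, 9.58, 9.60, 9.66 and 9.96 to a lymphoma range of 3.03 to 6.87 with a median of 4.77. H2-Oa fell 18.5-fold (adjusted p = 2.9e-06), to a range of 2.91 to 6.71 with a median of 4.59. H2-DMa fell 12.7-fold (adjusted p = 0.00089), to a range of 2.06 to 7.89 with a median of 5.71. Every lymphoma lay below every premalignant array for all 3 genes, and 3, 4 and 3 of the 13 lymphomas, in that order, lay below the filter level. The means count those values as measured.

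Classical chains and the invariant chain fell as well. H2-Eb1 fell 8.91-fold (adjusted p = 0.0075), from 11.18 ± 0.13 to a lymphoma range of 2.57 to 10.57 with a median of 8.59. H2-Aa fell 7.31-fold (adjusted p = 0.011), to a range of 4.02 to 11.54 with a median of 9.88. H2-Ab1 fell 5.81-fold (adjusted p = 0.0028), to a range of 5.96 to 10.70 with a median of 8.59. Cd74 fell 6.15-fold (adjusted p = 0.027), to a range of 4.84 to 12.67 with a median of 11.14. No lymphoma reached the lowest premalignant array for any of these 4 genes. The Cd74 call was lost without premalignant replicate 1, 4 or 5 (adjusted p = 0.053 to 0.056).

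Probe sets of one gene differed in size of change. The second H2-Aa probe set fell 12.5-fold between premalignant cells and lymphomas, and the other H2-Ab1 probe sets fell 10.7-fold and 12.9-fold. All 3 passed over all probe sets (adjusted p = 0.0024, 0.00049 and 0.0002), of which 19.9% fell. Both H2-Aa probe sets, and the H2-Ab1 probe sets that fell 5.81-fold and 10.7-fold, are of a design that can bind related transcripts. The probe sets that stand for these 2 genes are therefore of that design. The H2-Ab1 probe set that is not fell 12.9-fold.

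Ciita did not follow as a called gene. Its lymphoma mean was 4.51 ± 1.07 against 5.18 ± 0.75 in premalignant arrays, a difference of -0.67 (interval -1.68 to 0.34; adjusted p = 0.28), and 6 of 13 lymphomas lay below the lowest premalignant array. Its probe sets disagreed. The dimmer one fell at least 2.67-fold (adjusted p = 0.0033), with 10 of 13 lymphomas below the filter level and 12 of 13 below every premalignant array. The mean of both probe sets passed (log2 change -1.14, adjusted p = 0.035). The lowest premalignant value was 4.92 on the dimmer probe set and 4.05, just above the filter level, on the probe set that stands for the gene.

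**Figure D2:**
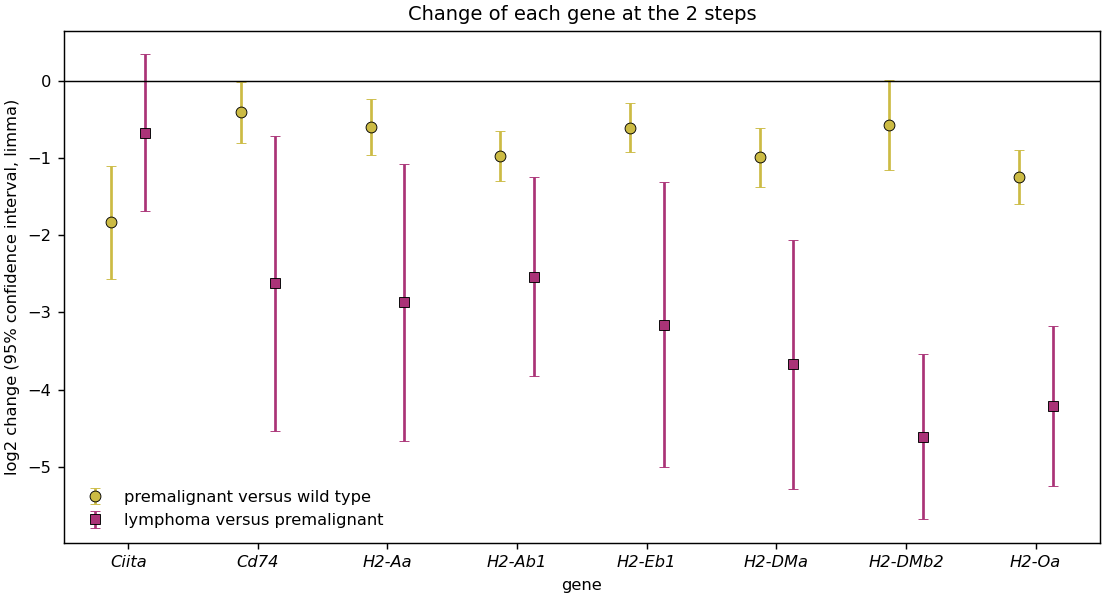
Fitted log2 change (vertical axis) of each gene (horizontal axis) in premalignant against wild type arrays (circles) and in lymphomas against premalignant arrays (squares), with 95% confidence intervals from limma. The squares lie between -2.54 and -4.61 for the 7 class II genes and at -0.67 for Ciita, whose circle lies at -1.83.

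At this step 7 of 8 genes fell and 0 rose, where 17.3% of all genes tested fell and 24.8% rose. The same 7 showed no overlap, against 5.93% of all genes in that direction. Their median log2 change was -3.01, against 0.09 over all genes. Against wild type arrays, with which the comparisons above share samples, all 8 fell, where 29.7% of all genes fell and 31.8% rose, and 7 showed no overlap (15.5% of all genes). The folds ran from 5.67 for Ciita (adjusted p = 0.00031) and 8.16 for Cd74 (0.016) to 36.1 for H2-DMb2 (3.2e-07) and 43.9 for H2-Oa (1.3e-07). Lymphoma 13 was the array that kept Ciita from separating, with 7.18 inside the wild type range of 6.87 to 7.27.

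Other features of the lymphoma arrays moved with these falls. Beta-actin read 1.29 to 2.49 log2 units brighter at its 3′ end than at its 5′ end in lymphomas, and 0.58 to 0.86 units brighter in the other arrays. All 6 B cell markers tested fell from premalignant cells to lymphomas, with a median log2 change of -1.28, among them the antigen receptor subunit Cd79a (2.04-fold, still at 10.75 to 12.08) and Ms4a1 (13.7-fold), which encodes CD20. Pax5 lay below the filter level on all 22 arrays. Of 5 stroma and endothelium markers tested, 3 rose, the matrix genes Col1a2 (at least 13.3-fold), Col3a1 (at least 17-fold) and Sparc (at least 14.6-fold), and Pecam1 fell 2.15-fold. The summed stromal markers were 7.00 to 8.18 in the other arrays and 8.19 to 11.79 in lymphomas. Of 9 macrophage markers 2 rose and 2 fell, and their sum ranged from 9.09 to 11.47 in the other arrays and from 10.01 to 12.48 in lymphomas. Of 8 dendritic cell markers 6 were below the filter level on every array, as were 4 of 7 T cell markers. The T cell gene Cd4 was above it in lymphomas 3, 6, 7 and 10 (6.72, 6.50, 5.92 and 4.29) and at 2.00 to 2.40 in the other stages. Of 4 plasma cell markers 3 fell from premalignant cells to lymphomas, among them Jchain, the joining chain of secreted antibody (at least 67-fold). The part of these differences in the class II falls was not tested. In bulk RNA, fewer cells that express a gene and less RNA per cell cannot be told apart, and neither can organ or bead and stage. Myc, the transgene's product, was 7.59-fold higher in premalignant than in wild type arrays (adjusted p = 1.4e-05) and did not pass between lymphomas and premalignant arrays (log2 change -0.38, adjusted p = 0.26).

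Among the factors that seat Ciita on DNA, the RFX subunits Rfx5 and Rfxank fell at both steps. Rfx5 fell 1.73-fold and then 2.1-fold (adjusted p = 0.019 and 0.00013), and Rfxank 2.05-fold and then at least 1.11-fold (0.00062 and 0.0013). The NF-Y subunits Nfya, Nfyb and Nfyc passed in neither (log2 changes of -0.29 to 0.32). The coactivator Crebbp fell 1.43-fold in premalignant cells (adjusted p = 0.049) and was 1.47-fold higher in lymphomas than in premalignant cells (0.004). Of 9 genes tested, 3 fell at the first step (14.1% of all genes), and 2 fell and 1 rose at the second (17.3% and 24.8% of all genes).

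Most of the regulators upstream of Ciita fell. Of 10 tested, 7 fell in premalignant cells and 8 in lymphomas against premalignant cells, and none rose, where 14.1% and 17.3% of all genes fell. Bcl6, a repressor of germinal centre B cells, fell 3.5-fold and then 1.9-fold (adjusted p = 0.0009 and 0.0018). Irf1, which carries the interferon gamma signal to Ciita, fell 2.69-fold and then 2.14-fold (0.00081 and 0.0003). The interferon gamma receptor chain Ifngr2 fell 2.42-fold in premalignant cells (0.0064). Jak2, a kinase of that receptor, fell 1.77-fold and then 2.33-fold (0.0048 and 8.6e-05). Irf4, a factor of B cell activation and plasma cell fate, fell 2.22-fold in lymphomas against premalignant cells (0.013), and against wild type arrays all 10 genes fell, where 29.7% of all genes did.

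Called genes of the peptide processing list, which holds proteases and other proteins, went both ways in lymphomas. Ctss, the cathepsin that trims Cd74 in B cells, fell 1.66-fold in premalignant cells and 2.39-fold more in lymphomas (adjusted p = 0.02 and 0.00012). Ctsh fell 1.83-fold and then 2.99-fold (0.00062 and 9.5e-06), and the thiol reductase Ifi30 fell 1.79-fold in lymphomas (0.048). Ctsl, which fell 1.74-fold in premalignant cells (0.027), was 3.81-fold higher in lymphomas than in premalignant cells (3.6e-05). Ctsd, the lysosomal membrane protein gene Lamp1 and Ctsb also rose in lymphomas, by 3.21-fold, 1.7-fold and 1.64-fold. Of 12 genes tested, 3 fell at the first step (14.1% of all genes), and 3 fell and 4 rose at the second, not far from the 17.3% and 24.8% of all genes. Ctsl and Ctsd are also made by macrophages and stromal cells, whose marker sums are given above. Of 9 macrophage markers 2 rose and 2 fell at the second step. The part of such cells in the changes of this list was not tested.

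Surface molecules that work beside class II fell as a group in lymphomas. All 7 tested fell against premalignant cells, with a median log2 change of -1.93 (-1.53 when group means under log2 4 count as 4), and 4 had fallen in premalignant cells. Of all genes 17.3% and 14.1% fell at those steps, and the median change of all genes in lymphomas was 0.09. Cd83, which keeps class II at the cell surface, fell 3.31-fold and then at least 14.6-fold (adjusted p = 0.0035 and 9.1e-14). The costimulatory ligand Icosl fell 5.56-fold and then 5.09-fold (1.6e-05 and 0.0013). Cd40, the receptor for T cell help, fell 3.15-fold and then at least 2.65-fold (0.0012 and 2.5e-08), and the tetraspanin Cd82 fell 2.07-fold and then 5.44-fold (0.0051 and 5.6e-05).

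MHC class I genes fell as well. Of 9 class I presentation genes tested, 7 fell and 1 rose in premalignant cells and 6 fell at the step to lymphoma. Of all genes 14.1% fell and 12.7% rose at the first step, and 17.3% fell at the second. The peptide loading factor Tapbp fell 3.13-fold in lymphomas (adjusted p = 3.9e-06), the light chain B2m 2.41-fold (0.00025), the peptide transporter Tap1 2.26-fold (0.0021) and the heavy chain H2-D1 2.24-fold (0.00055). In premalignant cells Tap1 fell 2.04-fold (0.0023), Tap2 1.9-fold (0.016) and H2-K1 1.64-fold (0.042), and the peptide trimming enzyme Erap1 rose 2.08-fold (0.022). The median change of the list in lymphomas was -1.07, beside -3.01 for the class II genes and Ciita. H2-Ea, the defective partner of H2-Eb1, was called in no comparison (lymphoma mean 4.99, wild type mean 4.94), close above the filter level.

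Among the 13 lymphomas the class II genes were some of the most variable on the array. The SD of Cd74 was 2.20 log2 units, rank 26 of 6437 genes, and the other 7 ranked between 31 and 213, where the median SD of all genes was 0.333. In premalignant arrays the SDs ran from 0.13 for H2-Eb1 to 0.75 for Ciita. Array by array, from lymphoma 1 to lymphoma 13, Cd74 was 4.84, 11.12, 12.36, 11.14, 7.47, 10.79, 11.88, 11.43, 10.69, 9.27, 11.96, 11.57 and 12.67. Lymphomas 1, 5 and 10 stood at the low end and lymphomas 13, 3 and 11 at the high end.

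**Figure D3:**
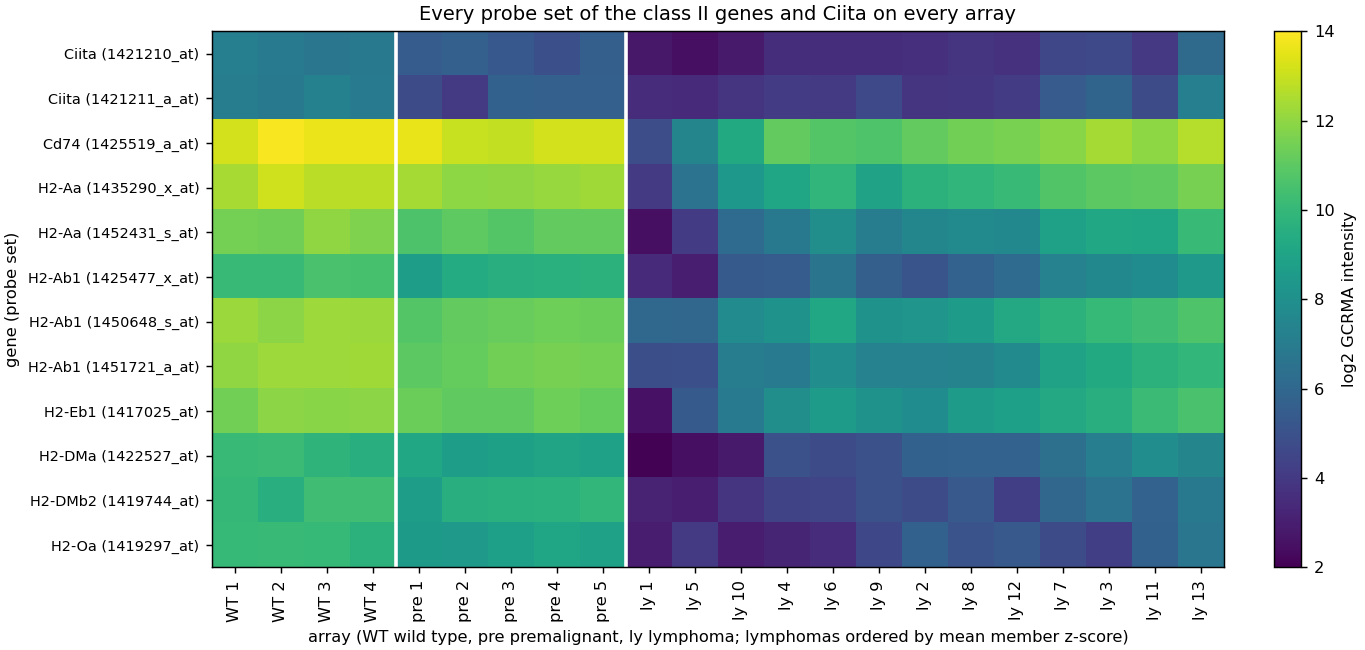
Log2 GCRMA intensity (colour) of all 12 probe sets (rows) on all 22 arrays (columns), with white lines between wild type, premalignant and lymphoma arrays and the lymphomas ordered from left to right by the mean z-score of the 8 genes. The rows darken together at lymphomas 1, 5 and 10, and lymphoma 13 at the right edge is the brightest lymphoma in most rows.

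Lymphoma 1 had 5 of its 8 values below the filter level, those of Ciita, H2-Eb1, H2-DMa, H2-DMb2 and H2-Oa. Its other values were 4.84 for Cd74 and 4.02 for H2-Aa, both the lowest of the lymphomas, and 6.06 for H2-Ab1. Lymphoma 5 lay below the filter level for Ciita, H2-DMa and H2-DMb2 and had the lowest H2-Ab1, at 5.96. Lymphoma 10 lay below it for Ciita, H2-DMa, H2-DMb2 and H2-Oa, and came next after lymphomas 1 and 5 for Cd74 (9.27), H2-Aa (8.39), H2-Ab1 (7.77) and H2-Eb1 (6.93). For H2-Ab1 this place depends on the probe set. On one of the others lymphoma 2 (5.14) lay below lymphoma 10 (5.38), and on the last lymphoma 4 (6.97) lay below it (7.06). Values below the filter level were given no order in this description, but the SDs, correlations and z-scores use them as measured. The B lineage gene Cd79a read 10.75 and 10.78 in lymphomas 1 and 5, the low end of the lymphoma range of 10.75 to 12.08. Ms4a1 was 4.64 and 7.19 there (range 4.64 to 10.68). Lymphoma 1 was also the lowest lymphoma for Cd79b (10.04), Ptprc (8.07), Cd22 (8.05) and Blnk (8.60). In lymphoma 5 these read 10.51, the lymphoma median, 8.79, 8.14 and 8.66. The part of B cell content in the low class II values was not tested.

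Lymphoma 13 was at the other end. It was highest for 7 of 8 genes and second for H2-DMa, in which lymphoma 11 led with 7.89. Its Ciita of 7.18 was 1.32 above the next lymphoma and close to the wild type mean of 7.01, yet its H2-DMb2 of 6.87 and H2-Oa of 6.71 lay below the lowest premalignant values of 8.66 and 8.47. Its Cd74 of 12.67 and H2-Ab1 of 10.70 lay just below the lowest premalignant values, 12.92 and 10.81. Lymphoma 3 was among the highest 3 for 7 of 8 genes, with H2-Oa (4.22) as the exception, and lymphoma 11 for 6 of 8.

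The classical chains and Cd74 moved almost as one across the lymphomas, and H2-Oa moved least with the rest. Over the 28 pairs of genes, Pearson's r across the 13 arrays had a median of 0.84 and ran from 0.57 to 0.99. Cd74, H2-Aa and H2-Eb1 reached 0.98 to 0.99 with each other. H2-Oa had 0.57 to 0.76 with the others. Array by array, H2-Oa was 2.91, 5.71, 4.22, 3.26, 4.03, 3.51, 4.74, 5.09, 4.59, 2.92, 5.74, 5.37 and 6.71, so that lymphoma 2 was among the highest 3 for H2-Oa and mid-range for Cd74. These correlations are a description, and genes that share an array also share its depth, scaling and cell mix.

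The relation of Ciita to its target genes was followed across the lymphomas. From lymphoma 1 to lymphoma 13 it was 3.53, 3.84, 5.86, 4.07, 3.47, 4.02, 5.44, 3.90, 4.67, 3.83, 4.73, 4.09 and 7.18. H2-DMb2 followed it most closely (r = 0.88, permutation p = 1e-05, the smallest that 100000 permutations can give; Spearman's rho = 0.87, permutation p = 0.00024), rank 4 of 6436 genes. Ciita's correlation was 0.77 with H2-Ab1 (permutation p = 0.0025; rho = 0.88, p = 0.00015), 0.72 with H2-DMa (0.0053; rho = 0.85, p = 0.00042) and 0.68 with H2-Eb1 (0.021; rho = 0.91, p = 1e-05). It was 0.65 with H2-Aa (0.026; rho = 0.86, p = 0.0003), 0.62 with Cd74 (0.036; rho = 0.88, p = 0.00016) and 0.57 with H2-Oa (0.042; rho = 0.56, p = 0.05). All p-values are two-sided.

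None of the 7 passed after Benjamini-Hochberg adjustment over 6436 genes (permutation adjusted p = 0.064 to 0.49 for r and 0.064 to 0.58 for rho). A single gene at the smallest permutation p reaches 0.064 after this adjustment, so H2-DMb2 alone could not have passed. All 7 had a positive r with an unadjusted permutation p under 0.05, which 3.62% of all genes had. Without lymphomas 13 and 3, the arrays farthest from the median of Ciita, r was 0.83 for H2-DMb2 (permutation p = 0.00087), 0.74 for H2-Ab1 (0.011), 0.63 to 0.70 for Cd74, H2-Aa, H2-Eb1 and H2-DMa, and 0.40 for H2-Oa (0.22), so that the relation of H2-Oa rests on those arrays. With the other Ciita probe set 1 gene passed (lowest permutation adjusted p = 0.021). 5 of the 13 Ciita values lay below the filter level and so have no reliable order. The RNA quality measure moved the same way in part. The beta-actin 3′ to 5′ difference had r = -0.60 with Ciita (permutation p = 0.027; rho = -0.67, p = 0.014) and r = -0.70 with H2-DMb2 (0.0072; rho = -0.77, p = 0.0028). A negative r with an unadjusted permutation p under 0.05 was found for these 2 of the 8, and for 2.30% of all genes. For the other 6 genes r was -0.20 to -0.50 (permutation p = 0.079 to 0.52). None of the 8 passed after adjustment over 6437 genes (permutation adjusted p = 0.72 to 0.93), and without lymphomas 3 and 5 the r of Ciita was -0.45 (0.17) and that of H2-DMb2 -0.51 (0.11). Its part in the relation with Ciita was not tested.

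**Figure D4:**
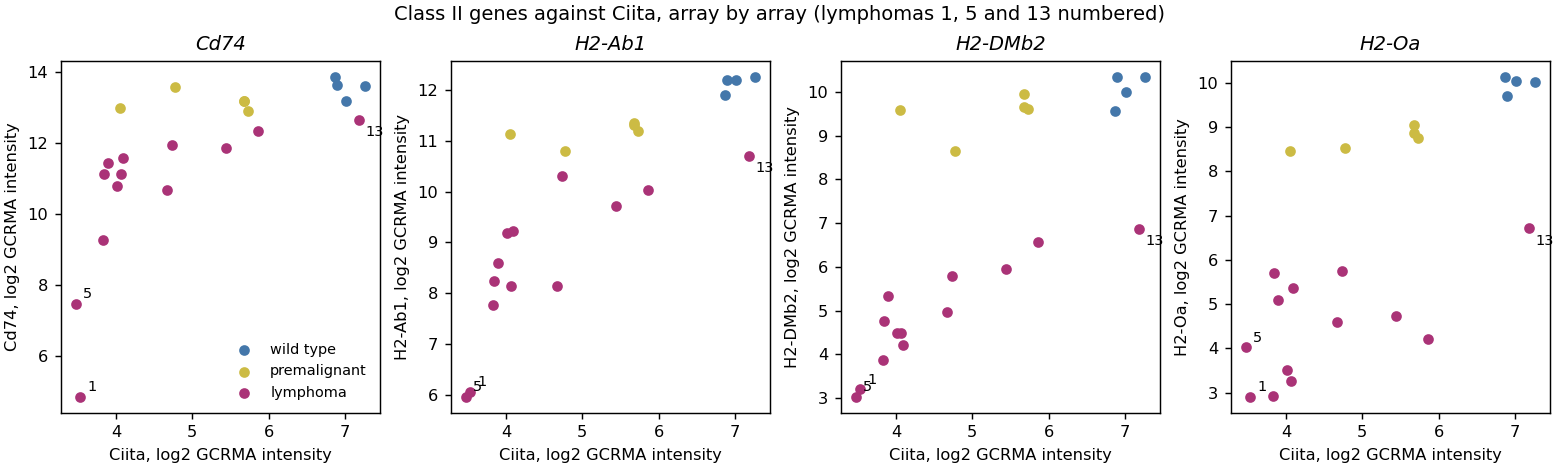
Log2 GCRMA intensity of 4 class II genes (vertical axes) against that of Ciita (horizontal axes), with 1 point per array coloured by stage and lymphomas 1, 5 and 13 numbered. Premalignant arrays with Ciita of 4.05 to 5.73 lie above the lymphomas in every panel.

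The same Ciita level went with different class II levels at different stages. Premalignant replicate 2, with Ciita at 4.05, had H2-DMb2 at 9.58 and H2-Oa at 8.47, whereas lymphoma 4, with Ciita at 4.07, had 4.48 and 3.26. On the other Ciita probe set these arrays were at 5.70 and 3.57, so the match holds for 1 probe set only. Premalignant replicate 2 also had the highest erythroid marker sum of its group, 9.45, beside 4.22 to 4.52 in the others. The part of this was not tested. Lymphoma 13 gives the reverse case, wild type Ciita on 1 probe set (7.18) with 6.13 on the other, beside wild type lows of 6.87 and 6.72.

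None of the partner and upstream genes passed in correlation with Ciita over the lymphomas. The highest r among them lay within the range of 0.57 to 0.88 that the class II genes had over all lymphomas. Bcl6 had r = 0.70 (permutation p = 0.04), which was 0.08 without lymphomas 13 and 3. Irf8 had 0.65 (permutation p = 0.015), and 0.41 without them. Rfxank had 0.60 (permutation p = 0.039), and -0.09 without them. Other genes of these lists kept or gained a correlation without those arrays. Irf2 went from 0.59 to 0.47, Nfyc from -0.56 to -0.58 and Creb1 from 0.03 to 0.59. Jak1 went from 0.47 to 0.66 (permutation p = 0.034), within the range of 0.63 to 0.83 that the class II genes other than H2-Oa had there.

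The level of class II was set beside marker lists of the cell types that the samples could hold. Over the 13 lymphomas, the mean z-score of the 8 genes had r = 0.54 with the summed B cell markers (0.35 without lymphomas 1 and 13), -0.57 with the stromal markers (-0.18 without them) and 0.07 with the macrophage markers (0.36 without them). It was 0.44 with the dendritic cell markers (0.60 without them). Of those 8 markers 6 lay below the filter level on every array, and their sum ran only from 5.69 to 6.13 in lymphomas. Lymphoma 1 had a macrophage sum of 11.46, above the lymphoma median of 10.79, beside 5 of 8 values below the filter level. Its stromal sum of 11.79 was the highest of all arrays, and that of lymphoma 13, at 8.19, was the lowest of the lymphomas. Lymphoma 11, with a stromal sum of 11.37, was among the highest for class II. These values are a description, with no test.

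**Figure D5:**
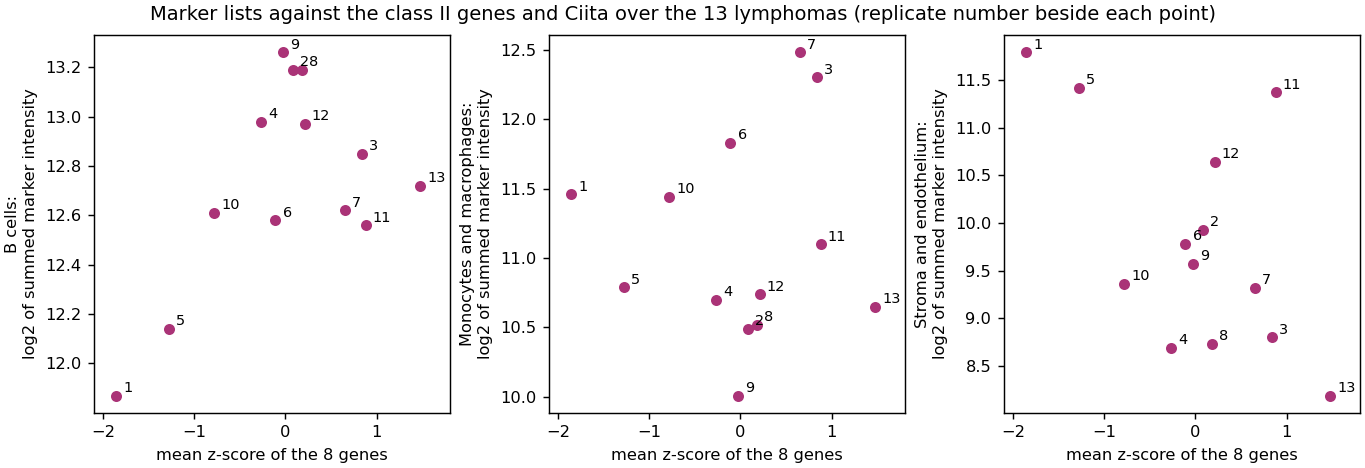
Log2 of the summed intensity of 3 marker lists (vertical axes) against the mean z-score of the 8 genes (horizontal axes) in the 13 lymphomas, numbered by replicate. Lymphomas 1 and 5 combine the lowest B cell sums, 11.87 and 12.14, with high stromal sums, 11.79 and 11.42, while lymphoma 11 has a stromal sum of 11.37 and a high class II score.

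The genes most like the class II pattern were ranked by Pearson's r with the mean z-score of the 8 genes over the 13 lymphomas, leaving those 8 out. The highest were the kinase Tec (0.92), Aftph (0.92), the B cell receptor inhibitor Cd22 (0.90), Sash3 (0.88) and Cggbp1 (0.87), and without lymphomas 1 and 13 they stood at 0.73 to 0.87. Tec was 5.37 in lymphoma 1, 5.39 in lymphoma 5 and 7.60 in lymphoma 13. The lowest were Nhp2 (-0.93), a protein of small nucleolar ribonucleoproteins, the mRNA cap methyltransferase Rnmt (-0.90) and Emc2 (-0.89), and they stood at -0.73 to -0.85 without those arrays. Nhp2 was 10.68 in lymphoma 1 and 9.51 in lymphoma 13. These genes were picked as the extremes of 6437, and no test was made of them.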

How the data were processed

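Deposited values are intensities that the authors computed with GCRMA, as the submitters' processing notes name it. No version is named, and whether the 22 arrays went through it jointly is not stated. GCRMA subtracts a sequence-based background, brings arrays to one distribution and summarises probe sets, so a shift of most genes in one direction can be removed. The deposited intensities are linear (2.11 to 18277), and log2 was taken here.

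Probe sets with log2 above 4 on at least 4 of 22 arrays were kept (10789 of 22690). Those with 1 gene symbol in the platform annotation (9832) gave 6437 genes, each read from the probe set of highest mean. A group mean under log2 4 counts as 4 in a fold, which then reads "at least". The 2 groups of a comparison entered a limma 3.58.1 fit (R 4.3.3, statmod 1.5.0; lmFit, then eBayes, two-sided), with Benjamini-Hochberg adjusted p under 0.05 as the call. Correlations over lymphomas used 100000 permutations (Python 3.11.15, numpy 2.4.6, pandas 2.3.3, scipy 1.17.1). Replicate numbers are not said to pair samples and were not used as pairs in the main fits. Deviations of wild type and premalignant arrays with the same number correlated at -0.06 to 0.21, which was not tested and cannot exclude a pairing.

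Named genes are the 9 listed, per comparison up to 3 called genes from a pathway list's main direction with 1 opposite, and the 5 most and 3 least like genes. Nfya, Nfyb, Nfyc, Creb1, Irf2, Irf8, Jak1, Ifi30, Ctsb, H2-D1 and H2-Ea and the marker genes that are not near the filter level were added after their values were seen. The members and lists were chosen with earlier results of these data known.

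Fits were tested on simulated data. With equal spread in both groups the share of false calls was near or slightly above the threshold. With each group given its real spread it exceeded the threshold in all 3 comparisons, most for lymphomas against premalignant arrays, so calls near the threshold there are less certain than their adjusted p. Alternatives changed the filter, the probe set rule, the scaling, the arrays and the replicate block.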

Additional observations from a re-analysis of the deposited data

Results flagged for a closer look

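In 3 of the 24 sets of 4 or 5 arrays looked at, 1 array lay far from the rest of its group, each time among the wild type arrays. Chance gives about 1 in 20 for independent sets. These sets share their arrays, and some share a gene, so the count cannot be set against that share. H2-Ab1 on the probe set that stands for it was lowest in wild type replicate 2, at 11.90, where the nearest array was at 12.20. H2-Ab1 on one of its other probe sets was lowest in wild type replicate 1, at 11.99, with the nearest at 12.24. H2-Eb1 was lowest in wild type replicate 1, at 11.44, with the nearest at 11.89. All 3 values lie above every premalignant array of the same probe set.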

How the results depend on the processing

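For the 3 comparisons, 592 values of single genes were recomputed under other settings. All were negative, 571 stayed on their side of the threshold, 18 lost the call and 3 gained it. Premalignant against wild type was the weakest. Its 6 called genes became 1 with spike centring and 1 in a single fit over the 3 stages, and 5 to 7 when an array was left out. Over all genes 1725 became 560 with spike centring (455 higher and 105 lower) and 1292 to 1804 when an array was left out. With the replicate number as a block, a number that is not said to pair the arrays, H2-Aa (adjusted p = 0.075) and H2-Eb1 (0.055) lost the call. For lymphomas against premalignant arrays the 7 called genes were 6 to 7 when an array was left out. Over all genes 2711 became 4929 with no filter (3289 lower), 1771 with spike centring and 1677 with the replicate block (2236 to 2739 when an array was left out). Against wild type arrays 8 genes stayed called in each setting that left out an array, and 3956 over all genes became 7921 with no filter (5797 lower and 2124 higher, against 1911 and 2045), and 3585 to 3978 when an array was left out. The count of genes correlated with Ciita, 0, became 1 with the mean over probe sets, 1 with the other Ciita probe set, and 0 to 1 when a lymphoma was left out (1 without lymphoma 9 or 12). The spike centring, the joint fit and the block lower the counts for causes that were not tested, beyond the wider spread that lymphomas bring to a joint fit. Leaving out wild type replicate 2 and premalignant replicate 1 together, and the other Ciita probe set, were chosen after the data were seen. Values below log2 4 lie near the background, which limits the order of the lowest lymphomas.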
